A study of Mus musculus with 24 samples.

Results

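The comparison described here sets mice that lost GHR in hepatocytes and received rat IGF1 (group aHepGHRkd_rIGF1; GHR is the growth hormone receptor, and IGF1 an insulin-like growth factor) against GHR-intact mice (group Control). By the group labels it takes 12 of the 24 liver libraries, 6 in each group, and all 20879 coding features among the 75794 features read. It asks what GHR loss does to the liver transcriptome when the factor that GHR signalling normally yields is given back.

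Growth hormone (GH) from the pituitary binds its receptor GHR on hepatocytes and activates the kinase JAK2, which switches on the transcription factor STAT5b. In liver this pathway drives Igf1, the gene of the circulating growth factor IGF1, and it sets the sex-biased expression of many cytochrome P450, sulfotransferase and major urinary protein genes, because GH is released in pulses in males and more evenly in females. IGF1 made by the liver feeds back on the pituitary and lowers GH release, so that loss of hepatic GHR lowers IGF1 and raises GH, while a supply of IGF1 can act on that loop.

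All animals were Ghr fl/fl mice on C57BL/6, chow-fed, labelled male and 10 to 12 weeks old, although the protocol text also mentions female littermates. Each received adeno-associated virus serotype 8 (AAV8) with a thyroxine-binding globulin promoter, which restricts expression to hepatocytes, through the tail vein, at a total dose of 3.5 in units of 1e+11 genome copies. Livers were taken 7 days later. Control mice received the empty Null vector. The aHepGHRkd_rIGF1 mice received a Cre vector at 1.5, which deletes floxed Ghr, and a rat IGF1 vector at 2.0, which fills the total, so that by these sums no Null vector was needed. The groups aHepGHRkd (Cre at 1.5) and aHepGHRkd_STAT5bCA (Cre at 1.5 with a constitutively active STAT5b at 0.75) are given beside them as context, each with Null vector making up the total. Cre, the rat IGF1 vector and the Null dose differ between Control and aHepGHRkd_rIGF1 along with Ghr, and their parts in any difference cannot be told apart. The targeting is to hepatocytes, while the RNA came from liver tissue, and in such bulk RNA fewer cells of a type and less RNA per cell cannot be told apart.

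Every value below is a transcripts-per-million (TPM) value that the authors' deposited table gives once per group. No value per animal was used here, no SD or SE can be given, and the depth per library is unknown. The authors' deposited table compares aHepGHRkd with Control and aHepGHRkd_rIGF1 with aHepGHRkd, and no ready comparison of aHepGHRkd_rIGF1 with Control was used here. The ratio of both group values is a description without a test, and "higher" and "lower" below mean only that 1 group value exceeded the other.

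At the level of all coding genes, 11015 reached 1 TPM in the higher of both groups and were above 0 in both. Of these, 136 (1.23%) were at least 2-fold higher and 145 (1.32%) at least 2-fold lower in aHepGHRkd_rIGF1. The median log2 ratio was 0.14, the middle of the distribution was narrow, with 5th and 95th percentiles at -0.34 and 0.61, and 92.0% of the genes lay within 1.5-fold. Relative to that median, 95 were higher and 170 lower, so that the share of higher genes among those past 2-fold was 35.8% after centring and 48.4% before it. At 4-fold or more, 58 genes were lower and 26 higher. Just inside the 2-fold limit on the lower side stood Col15a1 (ratio 0.498), and just outside stood Slc23a2 and Cadm4 (4.79 against 9.57 TPM and 9.89 against 4.95 TPM in Control and aHepGHRkd_rIGF1). A gene that reached 1 TPM in a single group could pass the filter only by being high there.

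Set beside this, the same rule applied to aHepGHRkd against Control gave 102 higher (0.939%) and 142 lower (1.31%) of 10859 coding genes. Between aHepGHRkd_rIGF1 and aHepGHRkd it gave 32 higher (0.291%) and 22 lower (0.2%) of 10983. These comparisons share the Control or the aHepGHRkd libraries and are listed side by side only. At p under 0.05 in the authors' deposited table, made with edgeR, 339 (1.62%) of 20879 coding features rose and 398 (1.91%) fell in aHepGHRkd against Control. For aHepGHRkd_rIGF1 against aHepGHRkd the authors' deposited table has 0 coding features (0%) that rose and 2 (0.00958%) that fell at that limit. Its p column is read as adjusted, and counts at an unadjusted p were not available from it. The 2 were Wfdc21, a whey-acidic-protein family gene, and Orm1, which is described with the acute phase genes. Wfdc21, chosen after its values were seen, stood at 1374 TPM in Control, 193 in aHepGHRkd_rIGF1, 548 in aHepGHRkd and 979 in aHepGHRkd_STAT5bCA, a 7.10-fold difference between Control and aHepGHRkd_rIGF1.

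The tissue label was checked on marker genes. Albumin (Alb) was the leading hepatocyte marker, with 66647 TPM in Control and 82897 in aHepGHRkd_rIGF1. The Kupffer cell marker Clec4f (20.8 TPM in Control and 26.6 in aHepGHRkd_rIGF1) and the sinusoidal endothelial marker Stab2 (5.63 TPM in Control and 6.56 in aHepGHRkd_rIGF1) were also measured. Xist, from the inactive X chromosome, stood at 0.0254 and 0.0201 TPM, and the Y-linked Ddx3y at 22.9 and 26.04 TPM, in Control and aHepGHRkd_rIGF1.

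Ghr itself (chromosome 15, 3267755 to 3533352 in mm9 coordinates, as are all gene positions here) checks the labels, with 179.6 TPM in Control, 58.4 in aHepGHRkd_rIGF1, 55.1 in aHepGHRkd and 49.4 in aHepGHRkd_STAT5bCA. These values cover the whole gene rather than the floxed part. All 3 Cre groups were low, and aHepGHRkd_rIGF1 held 0.325 of the Control value. Of the 16 genes of the GH and IGF1 axis list, 14 reached 1 TPM, with a median log2 ratio of -0.08. At least 2-fold lower were 5 and higher 0 of these 14, beside 1.32% and 1.23% of all coding genes. The other 2, Socs1 and Igf1r, stayed under 1 TPM in Control and aHepGHRkd_rIGF1, though Socs1 had 2.26 TPM in aHepGHRkd_STAT5bCA.

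The targets that GH switches on through STAT5 were low in aHepGHRkd and in aHepGHRkd_rIGF1 alike. Cish, a feedback inhibitor of cytokine receptor signalling (chromosome 9, 107198990 to 107205115), had 9.21 TPM in Control, 0.414 in aHepGHRkd_rIGF1, 0.468 in aHepGHRkd and 5.95 in aHepGHRkd_STAT5bCA. Socs2, the inhibitor that limits GH signalling (chromosome 10, 94874124 to 94879491), had 17.6 TPM in Control, 1.098 in aHepGHRkd_rIGF1, 1.48 in aHepGHRkd and 38.3 in aHepGHRkd_STAT5bCA. Igfals, the acid-labile subunit that holds IGF1 in its long-lived serum complex (chromosome 17, 25014789 to 25018956), had 93.05 TPM in Control, 7.88 in aHepGHRkd_rIGF1, 8.37 in aHepGHRkd and 73.8 in aHepGHRkd_STAT5bCA. In aHepGHRkd_rIGF1 these genes were 22.2-fold, 16.1-fold and 11.8-fold lower than in Control. For aHepGHRkd against Control, the authors' deposited table gives ratios of 0.0505, 0.0833 and 0.0899 with p of 3.64e-53, 5.72e-38 and 7.02e-49. For aHepGHRkd_rIGF1 against aHepGHRkd, p is 1 for all 3 in the authors' deposited table. All 3 were higher in aHepGHRkd_STAT5bCA than in the other Cre groups.

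Igf1 stood nearer to Control than these targets. Its values were 143 TPM in Control, 114 in aHepGHRkd_rIGF1, 26.2 in aHepGHRkd and 96.4 in aHepGHRkd_STAT5bCA (chromosome 10, 87321010 to 87399792), so the rIGF1 group held 0.797 of the Control value. The ratio of aHepGHRkd_rIGF1 over aHepGHRkd stands at 3.89 with p of 0.946 in the authors' deposited table, and that of aHepGHRkd over Control at 0.186 with p of 0.01003. The sources used here do not say whether reads of the rat transgene were counted as mouse Igf1, so this value cannot be read as mouse Igf1 alone.

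The receptors, kinase and transcription factors of the axis did not all go one way. Prlr, the prolactin receptor, had 9.26 TPM in Control, 3.55 in aHepGHRkd_rIGF1, 4.19 in aHepGHRkd and 68.5 in aHepGHRkd_STAT5bCA, and was 2.61-fold lower than Control in the rIGF1 group. Stat5a had 5.46 TPM in Control and 10.04 in aHepGHRkd_rIGF1, and Stat5b, the main GH-activated STAT in liver, had 8.44 TPM in Control and 12.1 in aHepGHRkd_rIGF1. Jak2, the receptor kinase, had 3.96 TPM in Control and 5.62 in aHepGHRkd_rIGF1, and Socs3, an inhibitor induced by cytokines, had 9.47 TPM in Control and 8.497 in aHepGHRkd_rIGF1. The last 4 lay within 2-fold.

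Among the IGF-binding proteins, which carry IGF1 in blood, 0 of 4 passed 2-fold. Igfbp2 stood at 847 TPM in Control, 1391 in aHepGHRkd_rIGF1, 1211 in aHepGHRkd and 674 in aHepGHRkd_STAT5bCA, which lay within 2-fold. Igfbp3, the main serum carrier, stood at 8.75 TPM in Control, 15.9 in aHepGHRkd_rIGF1, 8.38 in aHepGHRkd and 5.699 in aHepGHRkd_STAT5bCA. Igfbp3 was thus 1.82-fold of Control in the rIGF1 group while its aHepGHRkd value was close to Control. Its ratio of aHepGHRkd_rIGF1 over aHepGHRkd stands at 1.76 with p of 0.827 in the authors' deposited table. Igfbp1 (97.9 TPM in Control and 134 in aHepGHRkd_rIGF1) and Igfbp4 (1691 TPM in Control and 1685 in aHepGHRkd_rIGF1) were within 1.5-fold.

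**Figure D1:**
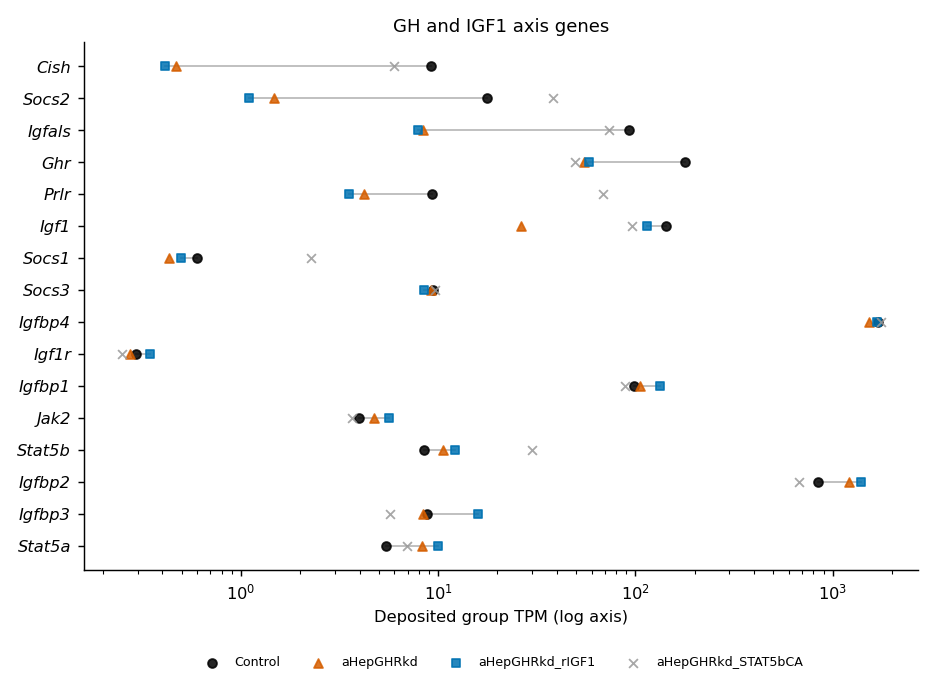
Group TPM of GH and IGF1 axis genes on a log axis, 1 point per group and gene, with a line joining Control and aHepGHRkd_rIGF1, each point being the authors' value over 6 libraries. Ghr, Igfals, Socs2, Cish and Prlr sit at least 2-fold below Control in aHepGHRkd_rIGF1, while Igf1 sits at 114 TPM against 143 TPM in Control.

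Promoter sequence was looked up for the genes at the ends of the ratio scale and for the 3 STAT5 targets above, because STAT5 binds the letters TTCNNNGAA. RefSeq windows on GRCm38.p6, from 250 bases before to 50 after the transcript start, were present for 8 of the 9 genes, in 10 windows. Socs2 is only named. TTCNNNGAA, which reads the same on both strands, occurred in 8.30% of all 32851 mouse windows, and the STAT6-type motif, with 1 more base in the middle, in 6.95%. TATAAA occurred in 13.6% and CCAAT in 37.4%, searched on both strands. Each motif was counted apart, and no matches listed here overlapped each other.

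TTCNNNGAA was found for Cish and Igfals, the 2 GH-axis genes with an entry. In Cish both matches lie just after the transcript start, at positions 1 and 12, and are shown as the first 20 transcribed bases (chr9:107296659-107296678, plus strand). The Igfals windows, of different transcript starts, hold a match at -236 in the first and at -58 in the second (chr17:24877594-24877843 and chr17:24877981-24878230, plus strand), and the third holds none. Capitals mark TTCNNNGAA. These are shown since they carry the letters in question.
Cish, first 20 bases: TTCCTGGAAagTTCTTGGAA
Igfals, window 1: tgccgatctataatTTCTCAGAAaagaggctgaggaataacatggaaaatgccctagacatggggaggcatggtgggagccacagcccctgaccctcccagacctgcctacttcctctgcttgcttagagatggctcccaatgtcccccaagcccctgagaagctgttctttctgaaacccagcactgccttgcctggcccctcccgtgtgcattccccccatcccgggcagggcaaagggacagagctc
Igfals, window 2: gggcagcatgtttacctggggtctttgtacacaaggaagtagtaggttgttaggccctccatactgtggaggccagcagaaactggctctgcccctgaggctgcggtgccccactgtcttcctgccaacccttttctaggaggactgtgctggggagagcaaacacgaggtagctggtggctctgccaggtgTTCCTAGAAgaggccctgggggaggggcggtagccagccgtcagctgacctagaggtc

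No TTCNNNGAA was found in the windows of the 3 genes with the smallest ratios, which says only that these letters are not in these windows. Hsd3b5 (chr3:98645535-98645784, minus strand) holds the STAT6-type motif at -203. Serpina1e (chr12:103956898-103957147, minus strand) holds CCAAT at -135, -99 and -82, and Clec2h (chr6:128662135-128662384, plus strand) holds none of the 4 motifs. They are shown, as the 250 bases before the start, because these genes differed most.
Hsd3b5: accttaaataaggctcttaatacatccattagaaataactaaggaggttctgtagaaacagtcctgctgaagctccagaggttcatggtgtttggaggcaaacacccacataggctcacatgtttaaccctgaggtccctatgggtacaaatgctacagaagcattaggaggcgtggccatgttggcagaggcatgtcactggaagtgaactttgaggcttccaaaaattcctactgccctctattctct
Clec2h: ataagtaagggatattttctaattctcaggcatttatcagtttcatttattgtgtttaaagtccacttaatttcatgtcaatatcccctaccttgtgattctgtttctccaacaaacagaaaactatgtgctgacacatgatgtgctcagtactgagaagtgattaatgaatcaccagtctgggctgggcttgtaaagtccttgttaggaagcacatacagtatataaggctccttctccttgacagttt
Serpina1e: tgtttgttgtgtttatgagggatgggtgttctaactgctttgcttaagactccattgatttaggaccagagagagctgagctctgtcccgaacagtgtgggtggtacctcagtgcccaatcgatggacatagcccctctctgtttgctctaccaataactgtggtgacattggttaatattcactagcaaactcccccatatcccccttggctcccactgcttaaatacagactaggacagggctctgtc

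Of the 3 genes with the largest ratios, Cyp2b13 (chr7:26061245-26061494, plus strand) and Cyp2b9 (chr7:26173159-26173408, plus strand) hold none of the 4 motifs. Their 250-base windows were identical at 248 positions (99.2%), and both are shown for that likeness. Myh1 (chr11:67199852-67200101, plus strand) holds TATAAA at -208 and -32 and CCAAT at -179, and is shown as the muscle gene among them.
Cyp2b13: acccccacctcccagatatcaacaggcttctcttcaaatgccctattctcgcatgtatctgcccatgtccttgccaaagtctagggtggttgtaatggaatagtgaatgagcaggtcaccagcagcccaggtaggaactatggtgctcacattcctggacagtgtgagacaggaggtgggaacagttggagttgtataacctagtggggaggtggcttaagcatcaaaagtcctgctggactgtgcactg
Cyp2b9: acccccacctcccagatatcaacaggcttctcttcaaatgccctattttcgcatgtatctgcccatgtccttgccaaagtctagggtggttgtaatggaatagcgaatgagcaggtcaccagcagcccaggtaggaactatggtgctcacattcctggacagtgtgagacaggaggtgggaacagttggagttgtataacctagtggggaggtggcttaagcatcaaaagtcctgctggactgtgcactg
Myh1: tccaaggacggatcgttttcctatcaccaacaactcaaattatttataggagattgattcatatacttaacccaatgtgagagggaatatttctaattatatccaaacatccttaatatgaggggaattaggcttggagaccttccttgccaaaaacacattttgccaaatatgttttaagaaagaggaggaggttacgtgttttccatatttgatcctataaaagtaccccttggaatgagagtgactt

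The 12 genes with the smallest ratios held the STAT5 targets Cish and Socs2, 5 genes of the male-biased list, and 5 others. Hsd3b5, a male-specific steroid-metabolising enzyme (chromosome 3, 98422559 to 98449457), had 95.99 TPM in Control, 0.272 in aHepGHRkd_rIGF1, 0.169 in aHepGHRkd and 30.6 in aHepGHRkd_STAT5bCA, 353-fold lower than Control in the rIGF1 group. Clec2h, a C-type lectin family gene, had 6.54 TPM in Control, 0.0691 in aHepGHRkd_rIGF1, 0.249 in aHepGHRkd and 3.06 in aHepGHRkd_STAT5bCA, a 94.7-fold difference. Serpina1e, an alpha-1-antitrypsin family gene, had 9135 TPM in Control, 119 in aHepGHRkd_rIGF1, 112 in aHepGHRkd and 1595 in aHepGHRkd_STAT5bCA, and was 76.5-fold lower. Its copies are closely alike, so reads could have been split among them. All 3 were low in aHepGHRkd as well and intermediate in aHepGHRkd_STAT5bCA.

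Of the other genes among the 12, Cyp4a12b, a fatty acid omega-hydroxylase with a near-identical neighbour Cyp4a12a, had 91.9 TPM in Control and 1.82 in aHepGHRkd_rIGF1. Slco1a1, an organic anion transporter, had 147 TPM in Control, 4.85 in aHepGHRkd_rIGF1, 3.199 in aHepGHRkd and 45.5 in aHepGHRkd_STAT5bCA. Selenbp2, a selenium-binding protein, had 446 TPM in Control and 17.9 in aHepGHRkd_rIGF1. Fabp5, a fatty acid-binding protein, had 82.8 TPM in Control and 3.305 in aHepGHRkd_rIGF1, and Nipal1, a magnesium transporter family gene, had 4.62 TPM in Control and 0.105 in aHepGHRkd_rIGF1. Prok1, the secreted peptide prokineticin, had 2.56 TPM in Control and 0.113 in aHepGHRkd_rIGF1, and A630076J17Rik, whose span overlaps that of Prok1 on chromosome 3, had 5.37 TPM in Control and 0.247 in aHepGHRkd_rIGF1. Because the counting is not stated to use strand, reads of this overlapping pair may not be told apart.

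**Figure D2:**
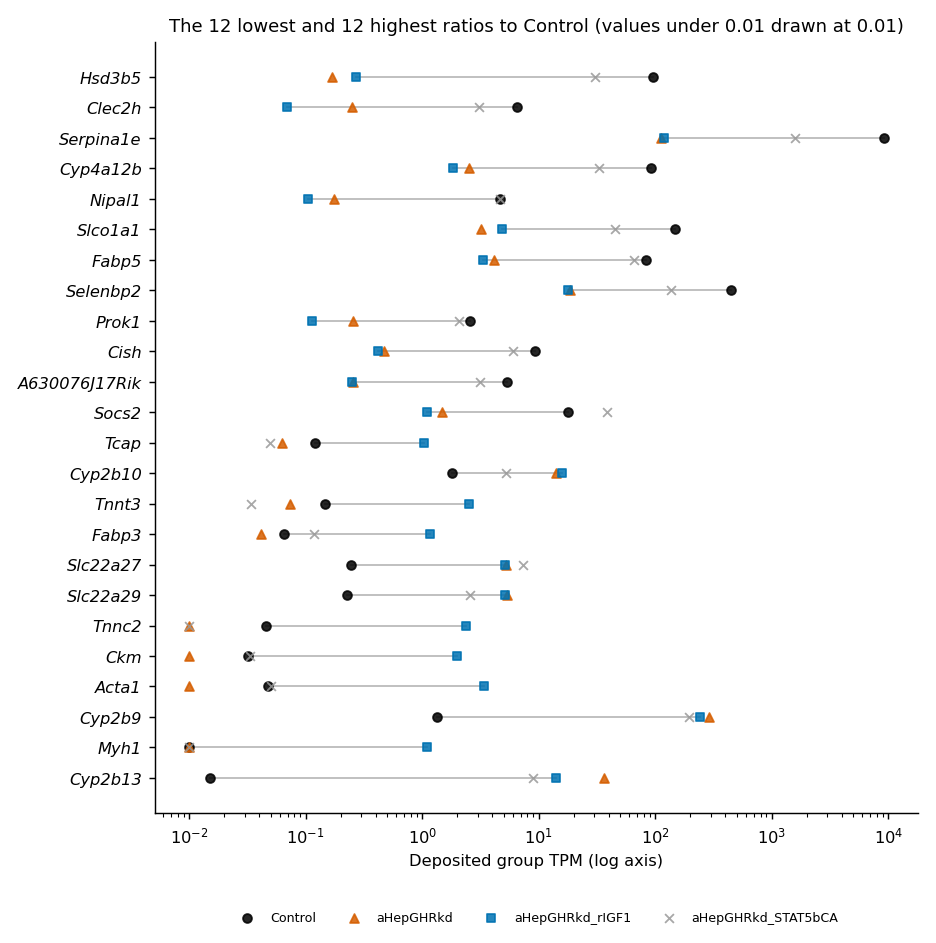
Group TPM, on a log axis, of the 12 coding genes with the smallest and the 12 with the largest ratio of aHepGHRkd_rIGF1 over Control, 1 point per group, with a line joining those 2 groups and values under 0.01 drawn at 0.01. The genes with the smallest ratios are low in both aHepGHRkd and aHepGHRkd_rIGF1, whereas muscle genes such as Acta1, at 3.36 TPM in aHepGHRkd_rIGF1, are lower in every other group.

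Male-biased liver genes were lower as a group. Of the 27 listed, 26 reached 1 TPM, 18 were at least 2-fold lower and 1 was at least 2-fold higher. The shares over all coding genes were 1.32% lower and 1.23% higher. The list had a median log2 ratio of -1.88 against 0.14 over all coding genes. In aHepGHRkd against the same Control libraries, 21 were lower and 1 higher, with a median of -1.91. The 27th, Cspg5, stood under 1 TPM in both groups. The list was chosen with earlier results of these data known.

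The major urinary proteins, pheromone carriers secreted into urine, were at least 2-fold lower in 4 of the 5 members listed. Mup3 had 17395 TPM in Control, 5318 in aHepGHRkd_rIGF1, 4892 in aHepGHRkd and 5763 in aHepGHRkd_STAT5bCA. Mup7 had 2162 TPM in Control and 156 in aHepGHRkd_rIGF1, and Mup20, the male pheromone darcin, had 10536 TPM in Control and 5344 in aHepGHRkd_rIGF1, which lay just within 2-fold. These genes lie in a cluster of near-identical copies, so single members are uncertain. Among enzymes, Ugt2b38 had 12.7 TPM in Control and 2.38 in aHepGHRkd_rIGF1, Sult5a1 had 13.1 TPM in Control and 2.51 in aHepGHRkd_rIGF1, and Gstp1 had 4245 TPM in Control and 1834 in aHepGHRkd_rIGF1, again with a near copy in Gstp2. Elovl3, an elongase of very long fatty acids, was within 2-fold, with 56.3 TPM in Control and 34.6 in aHepGHRkd_rIGF1. The 1 member that was higher was Bcl6, a transcriptional repressor that can bind the same sites as STAT5, with 6.03 TPM in Control, 17.9 in aHepGHRkd_rIGF1, 16.6 in aHepGHRkd and 9.83 in aHepGHRkd_STAT5bCA.

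Female-biased liver genes were higher as a group. Of the 35 listed, 24 reached 1 TPM, with a median log2 ratio of 1.26. At least 2-fold higher were 17 and at least 2-fold lower 3, beside 1.23% and 1.32% of all coding genes. In aHepGHRkd against Control 25 reached 1 TPM, of which 18 were higher and 3 lower, with a median of 1.49. Several of these, such as Cyp2b13, passed only through the groups where they were high, and the other 11 stayed under 1 TPM in both groups. Cyp2a5 and Cyp3a16, both counted as higher, were under 2-fold after centring and in the product of deposited ratios.

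The cytochrome P450 subfamily Cyp2b held the extremes. Cyp2b13 (chromosome 7, 26846514 to 26881215) had 0.0152 TPM in Control, 13.99 in aHepGHRkd_rIGF1, 36.5 in aHepGHRkd and 8.91 in aHepGHRkd_STAT5bCA. Its neighbour Cyp2b9 (chromosome 7, 26958428 to 26995679) had 1.35 TPM in Control, 244 in aHepGHRkd_rIGF1, 287 in aHepGHRkd and 196 in aHepGHRkd_STAT5bCA. Cyp2b9 was 180.4-fold higher in the rIGF1 group than in Control, and reads of these 2 near-identical genes may have been split between them. The Control value of Cyp2b13 is so close to 0 that its ratio is not a stable size. Cyp2b10, a target of the nuclear receptor CAR, had 1.796 TPM in Control, 15.9 in aHepGHRkd_rIGF1, 14.1 in aHepGHRkd and 5.27 in aHepGHRkd_STAT5bCA.

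Other female-biased genes were higher by smaller factors. Slc22a27 and Slc22a29, organic anion transporters, stood at 20.8-fold and 22.8-fold of Control. Slc22a27 had 0.245 TPM in Control and 5.104 in aHepGHRkd_rIGF1, and Slc22a29 had 0.228 TPM in Control and 5.18 in aHepGHRkd_rIGF1. Both passed the 1 TPM filter only through aHepGHRkd_rIGF1, so these folds rest on low Control values. Cyp2a22 had 4.32 TPM in Control and 30.2 in aHepGHRkd_rIGF1, Cyp17a1, an enzyme of steroid synthesis, had 12.6 TPM in Control and 39.97 in aHepGHRkd_rIGF1, and Abcd2, a peroxisomal fatty acid transporter, had 4.46 TPM in Control and 12.99 in aHepGHRkd_rIGF1. A further 3 Cyp3a genes were among those past 2-fold, led by Cyp3a41a with 0.464 TPM in Control and 1.12 in aHepGHRkd_rIGF1. The members that were lower were Cyp2c69 (3.37 TPM in Control, 0.416 in aHepGHRkd_rIGF1, 0.583 in aHepGHRkd and 489.8 in aHepGHRkd_STAT5bCA), its near copy Cyp2c40 (10.6 TPM in Control, 2.13 in aHepGHRkd_rIGF1, 2.33 in aHepGHRkd and 67.9 in aHepGHRkd_STAT5bCA) and the leukemia inhibitory factor receptor Lifr (31.4 TPM in Control, 14.8 in aHepGHRkd_rIGF1, 13.7 in aHepGHRkd and 167 in aHepGHRkd_STAT5bCA). Those 3 were highest in aHepGHRkd_STAT5bCA and lowest in aHepGHRkd and aHepGHRkd_rIGF1.

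**Figure D3:**
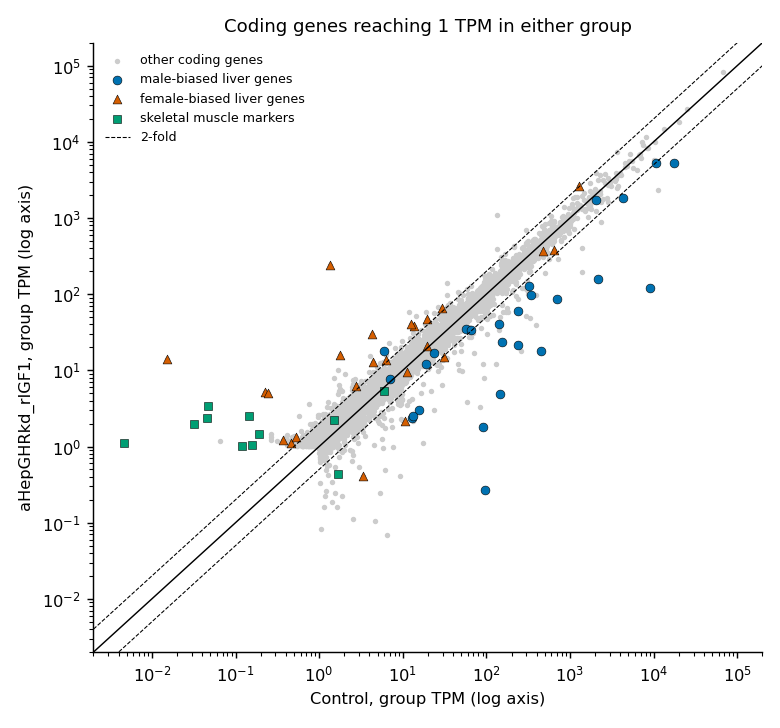
Group TPM in Control (x axis) against aHepGHRkd_rIGF1 (y axis), both log axes, with 1 point per coding gene. Shown are genes that reached 1 TPM in either group and were above 0 in both. Coloured are 3 lists, with the solid line at equal values and the dashed lines at 2-fold. Grey points keep close to the line, the points of the male-biased list lie mostly under it, as Serpina1e at 9135 and 119 TPM, and those of the female-biased list mostly over it, as Cyp2b9 at 1.35 and 244 TPM.

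The study's title names lipogenesis and insulin resistance, and the genes of glucose and lipid metabolism were examined next. Beside the list counts that follow, 1.23% of all coding genes were at least 2-fold higher and 1.32% at least 2-fold lower. In the list of 16 glycolysis and fructose genes, 15 reached 1 TPM, 1 was at least 2-fold higher and 1 lower, with a median of 0.19. Khk, the ketohexokinase that starts fructose breakdown, had 428 TPM in Control and 628 in aHepGHRkd_rIGF1. Pklr, the liver pyruvate kinase, had 148 TPM in Control and 119 in aHepGHRkd_rIGF1. Both lay within 2-fold. The lower one was Pfkfb3, which makes the glycolytic activator fructose 2,6-bisphosphate, with 6.07 TPM in Control, 1.74 in aHepGHRkd_rIGF1, 1.59 in aHepGHRkd and 2.69 in aHepGHRkd_STAT5bCA.

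In the list on de novo lipogenesis and triglyceride synthesis, 21 of 22 reached 1 TPM, 1 was at least 2-fold higher, 0 lower, and the median log2 ratio was 0.25 against 0.14 over all coding genes. Mogat1, a monoacylglycerol acyltransferase, was the 1 past the limit, with 0.956 TPM in Control, 2.59 in aHepGHRkd_rIGF1, 2.49 in aHepGHRkd and 1.43 in aHepGHRkd_STAT5bCA. Fatty acid synthase Fasn had 41.9 TPM in Control, 65.8 in aHepGHRkd_rIGF1, 64.2 in aHepGHRkd and 53.8 in aHepGHRkd_STAT5bCA. The desaturase Scd1 had 2267 TPM in Control, 3618 in aHepGHRkd_rIGF1, 3694 in aHepGHRkd and 2489 in aHepGHRkd_STAT5bCA. Acaca, which makes malonyl-CoA, had 14.5 TPM in Control and 20.7 in aHepGHRkd_rIGF1, Acly, which makes acetyl-CoA from citrate, had 56.1 TPM in Control and 66.9 in aHepGHRkd_rIGF1, and Srebf1, the transcription factor of lipogenesis, had 40.2 TPM in Control and 51.8 in aHepGHRkd_rIGF1. These 5 were within 2-fold of Control. For aHepGHRkd against Control, the authors' deposited table gives p of 0.0234 for Fasn, 0.0117 for Scd1 and 0.00999 for Srebf1. In that comparison p was 0.603 for Acaca and 0.222 for Mogat1, and that of Acly was not under 0.05 either. For aHepGHRkd_rIGF1 against aHepGHRkd, none of these genes was under 0.05.

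Lipid uptake genes held 2 of 23 members past 2-fold, of 24 listed, both higher, with a median of 0.23. Cd36, the fatty acid translocase, had 19.6 TPM in Control, 46.9 in aHepGHRkd_rIGF1, 57.4 in aHepGHRkd and 51.3 in aHepGHRkd_STAT5bCA, a 2.39-fold difference. Vldlr, the very-low-density lipoprotein receptor, had 0.374 TPM in Control, 1.23 in aHepGHRkd_rIGF1, 1.14 in aHepGHRkd and 0.6404 in aHepGHRkd_STAT5bCA, and lay near the filter. The lipid droplet coat gene Plin2 was within 2-fold, with 497 TPM in Control and 844 in aHepGHRkd_rIGF1. Both Cd36 and Vldlr are also on the female-biased list.

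Insulin signalling and glucose output genes lay near the middle of all genes. Of 20 insulin signalling genes, 18 reached 1 TPM, with 0 higher, 1 lower and a median of 0.17. The lower one was Trib3, a pseudokinase that inhibits AKT and is also an ER stress gene, with 5.36 TPM in Control, 2.500 in aHepGHRkd_rIGF1, 3.35 in aHepGHRkd and 2.97 in aHepGHRkd_STAT5bCA. The insulin receptor Insr had 25.9 TPM in Control and 27.3 in aHepGHRkd_rIGF1, and its substrate Irs1 had 2.28 TPM in Control and 3.37 in aHepGHRkd_rIGF1. The other substrate, Irs2, had 5.11 TPM in Control and 5.54 in aHepGHRkd_rIGF1. Insr and Irs2 changed sign after centring. Of 18 gluconeogenesis and glycogen genes, 0 were higher and 1 lower, with a median of 0.08 that turns negative after centring, when Ppp1r3g, a glycogen-targeting phosphatase subunit, was also past 2-fold lower. The lower one was Got1, the cytosolic aspartate aminotransferase, with 264 TPM in Control, 120.4 in aHepGHRkd_rIGF1, 107 in aHepGHRkd and 165 in aHepGHRkd_STAT5bCA, while Pck1, the rate-limiting gluconeogenic enzyme, had 2835 TPM in Control, 1626 in aHepGHRkd_rIGF1, 1450.4 in aHepGHRkd and 1839 in aHepGHRkd_STAT5bCA, and lay within 2-fold.

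**Figure D4:**
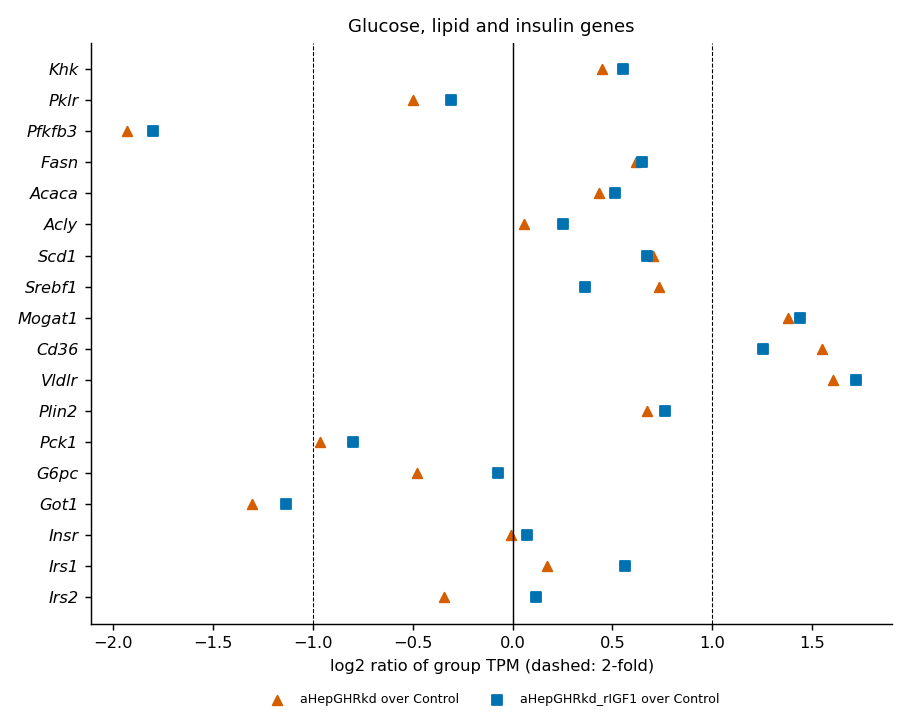
Log2 ratio of group TPM for glucose, lipid and insulin genes, with triangles for aHepGHRkd over Control and squares for aHepGHRkd_rIGF1 over Control, which share the Control libraries, and dashed lines at 2-fold. Of the squares, Mogat1, Cd36 and Vldlr are past 2-fold on the higher side and Pfkfb3 and Got1 on the lower side.

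Genes of fatty acid oxidation were spread on the same scale. All 24 PPAR alpha target and oxidation genes reached 1 TPM, with 2 higher, 0 lower and a median of 0.29. Pdk4, which blocks pyruvate entry to the citric acid cycle, had 1.72 TPM in Control, 5.31 in aHepGHRkd_rIGF1, 3.44 in aHepGHRkd and 2.83 in aHepGHRkd_STAT5bCA. Acot2, an acyl-CoA thioesterase, stood at 2.07-fold of Control, from 9.65 TPM, and dropped under 2-fold after centring. Cpt1a, the gate of mitochondrial oxidation, had 259 TPM in Control and 313 in aHepGHRkd_rIGF1, within 1.5-fold. None of the 19 cholesterol synthesis genes that reached 1 TPM, of 20, passed 2-fold. Hmgcs1 is listed at 0 in all groups, with its position given on chromosome 13_random (114527 to 132436), and this 0 may be a failed estimate. Of 19 bile acid genes 1 passed, Cyp7b1, the oxysterol 7-alpha-hydroxylase, with 141 TPM in Control, 40.7 in aHepGHRkd_rIGF1, 31.9 in aHepGHRkd and 146 in aHepGHRkd_STAT5bCA, and the rate-limiting Cyp7a1 was within 1.5-fold, with 83.1 TPM in Control and 71.03 in aHepGHRkd_rIGF1. After centring the bile acid transporter Slc10a1 was also past 2-fold lower.

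Xenobiotic receptor targets were higher or near Control. Of 20 listed, 19 reached 1 TPM, with a median of 0.56. At least 2-fold higher were 6 and lower 0, beside 1.23% and 1.32% of all coding genes. Beside Cyp2b10 the 6 were Gsta1 (4.04 TPM in Control and 15.4 in aHepGHRkd_rIGF1), a glutathione transferase, Abcb1a (1.23 TPM in Control and 3.33 in aHepGHRkd_rIGF1), a drug efflux pump, Cyp2c37 (297 TPM in Control and 693 in aHepGHRkd_rIGF1), Gstm3 (211 TPM in Control and 428 in aHepGHRkd_rIGF1) and Cyp3a11 (3627 TPM in Control, 7381 in aHepGHRkd_rIGF1, 6670.3 in aHepGHRkd and 4045 in aHepGHRkd_STAT5bCA). Gstm3 and Cyp3a11 were under 2-fold after centring and in the product of deposited ratios, which leaves 4. In aHepGHRkd against Control 4 were higher and the median was also 0.56. Of the receptors, Nr1i2 (PXR) had 79.9 TPM in Control and 80.3 in aHepGHRkd_rIGF1, and Nr1i3 (CAR) had 365 TPM in Control and 512 in aHepGHRkd_rIGF1, both within 1.5-fold. Ahr, the dioxin receptor, had 13.4 TPM in Control and 21.2 in aHepGHRkd_rIGF1, within 2-fold.

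Zonation and identity lists held 1 or 2 genes each past 2-fold, where all coding genes had 1.23% higher and 1.32% lower. Of 14 pericentral genes, 2 were at least 2-fold higher and 0 lower, namely Cyp2c37 and Lect2, a secreted chemotactic factor that had 148 TPM in Control, 307 in aHepGHRkd_rIGF1, 343 in aHepGHRkd and 242 in aHepGHRkd_STAT5bCA and dropped under 2-fold after centring. Glul, the glutamine synthetase of the perivenous rim, had 757 TPM in Control and 880.3 in aHepGHRkd_rIGF1. Of 14 periportal genes 1 was lower, Etnppl, a phosphoethanolamine lyase, with 119.9 TPM in Control, 53.1 in aHepGHRkd_rIGF1, 39.9 in aHepGHRkd and 42.03 in aHepGHRkd_STAT5bCA. Of 18 hepatocyte identity genes 1 was lower, the transcription factor Onecut1, with 9.72 TPM in Control, 4.13 in aHepGHRkd_rIGF1, 3.45 in aHepGHRkd and 8.78 in aHepGHRkd_STAT5bCA, and the master regulator Hnf4a was at 239 TPM in Control and 268 in aHepGHRkd_rIGF1.

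Of 24 complement and coagulation genes 23 were analysed here, with a median of -0.23 (-0.23 in aHepGHRkd against Control). At least 2-fold lower were 6 and higher 0, beside 1.32% and 1.23% of all coding genes. C6, a part of the membrane attack complex, had 155 TPM in Control, 23.8 in aHepGHRkd_rIGF1, 24.4 in aHepGHRkd and 72.1 in aHepGHRkd_STAT5bCA. C8a and C8b, chains of the C8 part of that complex, were also lower. C8a had 338 TPM in Control, 96.1 in aHepGHRkd_rIGF1, 139.8 in aHepGHRkd and 148 in aHepGHRkd_STAT5bCA. C8b had 236 TPM in Control, 60.95 in aHepGHRkd_rIGF1, 68.3 in aHepGHRkd and 109 in aHepGHRkd_STAT5bCA. C9, which forms the pore, had 308 TPM in Control and 149 in aHepGHRkd_rIGF1. F11, a clotting factor, had 62.04 TPM in Control and 27.4 in aHepGHRkd_rIGF1. C3, the central component, was within 2-fold, with 2051 TPM in Control and 1250.3 in aHepGHRkd_rIGF1. C6, C8a and C8b are also on the male-biased list.

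Acute phase genes, made by hepatocytes in inflammation, went both ways. All 25 reached 1 TPM, and 3 were at least 2-fold higher and 3 lower, beside 1.23% and 1.32% of all coding genes. The list median of 0.14 equals that of all coding genes. Orm2, an acid glycoprotein, had 133 TPM in Control, 390.3 in aHepGHRkd_rIGF1, 522 in aHepGHRkd and 247 in aHepGHRkd_STAT5bCA. The interleukin 1 antagonist Il1rn had 2.46 TPM in Control and 6.003 in aHepGHRkd_rIGF1, and Steap4, a metalloreductase, had 169 TPM in Control and 341 in aHepGHRkd_rIGF1. Steap4 was under 2-fold after centring and in the product of deposited ratios. The lower genes were Orm1, Crp and Apcs. Orm1, an acid glycoprotein (chromosome 4, 63005590 to 63009197), had 2360.4 TPM in Control, 873 in aHepGHRkd_rIGF1, 2091 in aHepGHRkd and 2636 in aHepGHRkd_STAT5bCA. For it the authors' deposited table gives a ratio of aHepGHRkd_rIGF1 over aHepGHRkd of 0.388 with p of 0.0499, and a p for aHepGHRkd over Control of 1. Orm1, Orm2 and Orm3 are near copies, and the direction of single members is uncertain. Crp, the pentraxin C-reactive protein, had 314 TPM in Control, 102 in aHepGHRkd_rIGF1, 122 in aHepGHRkd and 258 in aHepGHRkd_STAT5bCA. Apcs, serum amyloid P, had 177 TPM in Control, 66.5 in aHepGHRkd_rIGF1, 126 in aHepGHRkd and 311 in aHepGHRkd_STAT5bCA. The aHepGHRkd values of Saa1 and Saa2, the serum amyloid A genes, were 6057 and 5463 TPM, above both 2644 and 1736 in Control and 3763 and 2896 in aHepGHRkd_rIGF1. In aHepGHRkd against Control, 7 acute phase genes were higher and 1 lower, with a median of 0.49.

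Targets of p53, which halts growth after DNA damage, were higher in several members. Of 16 p53 targets 14 reached 1 TPM, and 5 were at least 2-fold higher and 0 lower, beside 1.23% and 1.32% of all coding genes. The median of these targets was 0.74 (0.48 in aHepGHRkd against Control). Cdkn1a, the cell cycle inhibitor p21 (chromosome 17, 29227924 to 29237667), had 11.8 TPM in Control, 57.6 in aHepGHRkd_rIGF1, 47.9 in aHepGHRkd and 45.2 in aHepGHRkd_STAT5bCA. Phlda3, an AKT inhibitor, had 2.06 TPM in Control, 8.98 in aHepGHRkd_rIGF1, 8.85 in aHepGHRkd and 11.5 in aHepGHRkd_STAT5bCA. Eda2r had 0.418 TPM in Control and 1.402 in aHepGHRkd_rIGF1, Gdf15, a stress hormone, had 5.85 TPM in Control and 12.8 in aHepGHRkd_rIGF1, and Ccng1 had 20.1 TPM in Control and 41.7 in aHepGHRkd_rIGF1. Gdf15 and Ccng1 were under 2-fold after centring, which leaves 3, and Ccng1 also in the product of deposited ratios. Trp53 itself was within 1.5-fold, with 20.7 TPM in Control and 19.95 in aHepGHRkd_rIGF1. Of 25 cell cycle genes 18 reached 1 TPM and 2 were higher, Cdkn1a and cyclin D1 (Ccnd1, 18.7 TPM in Control, 58.96 in aHepGHRkd_rIGF1, 69.7 in aHepGHRkd and 47.3 in aHepGHRkd_STAT5bCA), while Pcna, of the replication fork, had 30.2 TPM in Control and 36.2 in aHepGHRkd_rIGF1. Vector DNA dose was equal in total between groups, and the part of Cre in these values cannot be told apart from that of Ghr.

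Among the stress, clock, immediate early and interferon lists, the ER stress and heat shock list held the most genes past 2-fold. The share of all coding genes was 1.23% higher and 1.32% lower. Of 16 ER stress and heat shock genes 15 reached 1 TPM, 1 was higher (Hspa1a, a heat shock chaperone, 0.555 TPM in Control and 1.12 in aHepGHRkd_rIGF1) and 2 were lower, Trib3 and the asparagine synthetase Asns (2.46 TPM in Control, 0.6504 in aHepGHRkd_rIGF1, 1.41 in aHepGHRkd and 1.004 in aHepGHRkd_STAT5bCA). Hspa1a was under 2-fold after centring. Of 19 clock genes 18 reached 1 TPM, and Bhlhe41, a repressor, was lower, with 1.22 TPM in Control and 0.497 in aHepGHRkd_rIGF1. None of the 10 immediate early genes that reached 1 TPM, of 12, and none of the 22 interferon genes, of 23, passed 2-fold, though Myc, an immediate early gene, was past 2-fold lower after centring.

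**Figure D5:**
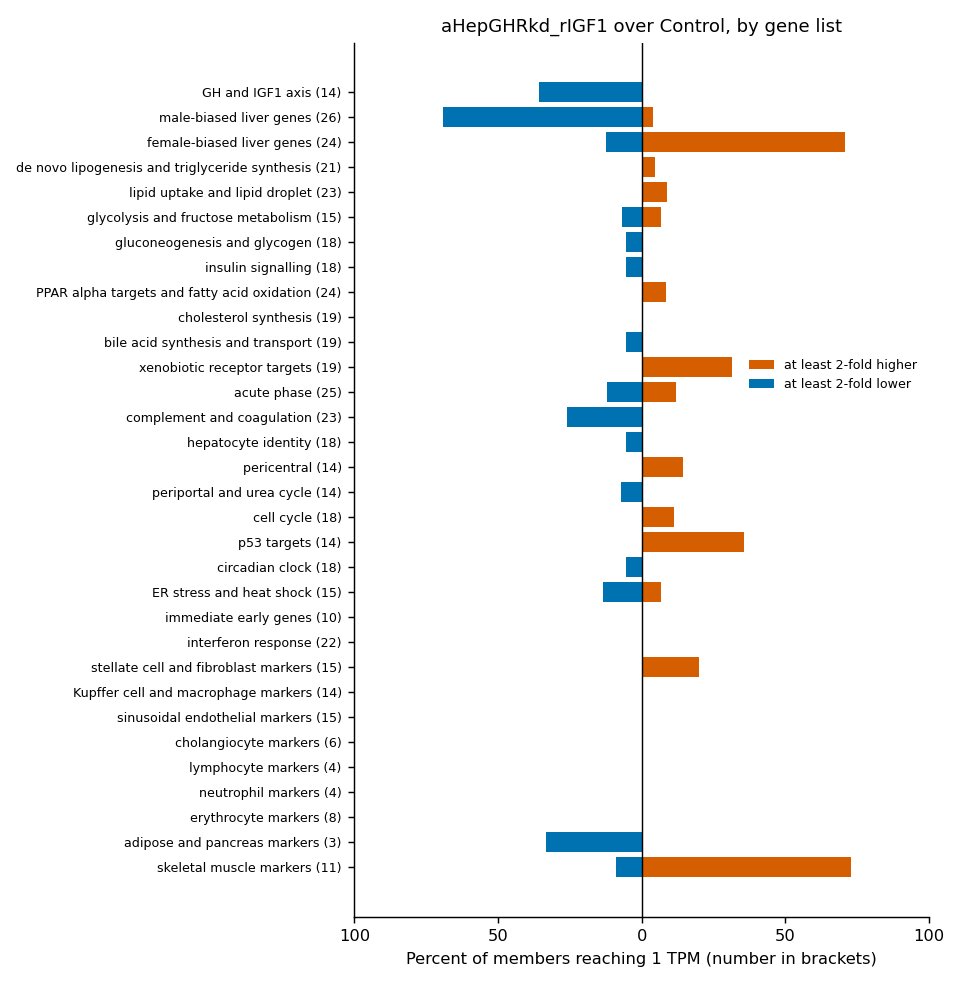
Percent of each list's members that were at least 2-fold higher (right) or lower (left) in aHepGHRkd_rIGF1 than in Control. Counted are members reaching 1 TPM and above 0 in both groups (number in brackets). The male-biased list reaches farthest to the left, with 18 of 26 members, and the female-biased and skeletal muscle lists farthest to the right, with 17 of 24 and 8 of 11. The skeletal muscle list was added after the values were seen. Most of its members passed only through aHepGHRkd_rIGF1, so its bar had to show a difference. Among all coding genes, 1.23% were higher and 1.32% lower.

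Transcripts of other cell types were counted beside these results. Skeletal muscle genes, a list added after the values were seen, made up 7 of the 12 largest ratios when the heart-type fatty acid-binding protein Fabp3 is counted with them. Of 23 listed, 11 reached 1 TPM in the higher of both groups and were above 0 in both, with a median of 3.09. At least 2-fold higher were 8 and lower 1, beside 1.23% and 1.32% of all coding genes. The lower one was Neb, a giant sarcomere protein, with 1.68 TPM in Control and 0.432 in aHepGHRkd_rIGF1. Most of the 8 passed only through the rIGF1 group, so their count had to show a difference. Acta1, the skeletal actin (chromosome 8, 126415658 to 126418675), had 0.0473 TPM in Control, 3.36 in aHepGHRkd_rIGF1, 0.00951 in aHepGHRkd and 0.0503 in aHepGHRkd_STAT5bCA. The fast myosin Myh1 (chromosome 11, 67013604 to 67038077) had 0.00465 TPM in Control and 1.100 in aHepGHRkd_rIGF1, the muscle creatine kinase Ckm had 0.0321 TPM in Control and 1.99 in aHepGHRkd_rIGF1, and the troponin Tnnc2 had 0.0455 TPM in Control and 2.39 in aHepGHRkd_rIGF1. Another troponin, Tnnt3, had 0.146 TPM in Control and 2.53 in aHepGHRkd_rIGF1. Myoglobin (Mb) had 1.57 TPM in aHepGHRkd_rIGF1 and is listed at 0 in the other 3 groups, so no ratio is given. The summed level of the list was 10.4 TPM in Control, 26.5 in aHepGHRkd_rIGF1, 7.65 in aHepGHRkd and 10.8 in aHepGHRkd_STAT5bCA. The p of aHepGHRkd_rIGF1 over aHepGHRkd in the authors' deposited table is 0.101 for Acta1, 0.104 for Myh1 and 0.391 for Ckm. It is 0.391 for Tnnc2, 0.472 for Mb and 0.878 for Tnnt3, and none of the muscle genes named here was under 0.05. The table does not show how many of the 6 libraries carried these reads, and their part in other results was not tested.

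Stellate cell and fibroblast markers were also higher. Of 16 listed 15 reached 1 TPM, and 3 were at least 2-fold higher and 0 lower, beside 1.23% and 1.32% of all coding genes. The list median was 0.67, against 0.14 over all coding genes, while it was 0.11 in aHepGHRkd against Control. Above Control were 14 of the 15, but so were 14 of 14 Kupffer cell and 14 of 15 sinusoidal endothelial markers. The summed level of the stellate cell and fibroblast list was 93.0 TPM in Control, 141 in aHepGHRkd_rIGF1, 92.3 in aHepGHRkd and 86.6 in aHepGHRkd_STAT5bCA. The 3 past 2-fold were collagens of the fibrous matrix. Col3a1 had 2.57 TPM in Control, 7.52 in aHepGHRkd_rIGF1, 2.87 in aHepGHRkd and 2.76 in aHepGHRkd_STAT5bCA. Col1a1 had 0.991 TPM in Control and 2.63 in aHepGHRkd_rIGF1, and Col1a2 had 1.93 TPM in Control and 4.28 in aHepGHRkd_rIGF1. Dcn, the matrix proteoglycan decorin, had 49.8 TPM in Control, 71.9 in aHepGHRkd_rIGF1, 46.7 in aHepGHRkd and 44.4 in aHepGHRkd_STAT5bCA. Other list members lay nearer to Control. Acta2 had 1.06 TPM in Control and 1.02 in aHepGHRkd_rIGF1, and Tagln had 6.81 TPM in Control and 8.70 in aHepGHRkd_rIGF1. Without the muscle and fibroblast lists, a choice made after the data were seen, 125 genes were higher and 144 lower.

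Markers of the other liver and blood cell types held 0 genes past 2-fold in either direction. Among all coding genes 1.23% were higher and 1.32% lower, so a count of 0 in such short lists is near that share. The median over all coding genes was 0.14. This covers the Kupffer cell (14 reaching 1 TPM, median 0.32), sinusoidal endothelial (15, 0.22), cholangiocyte (6, 0.47), lymphocyte (4, 0.54), neutrophil (4, -0.08) and erythrocyte (8, 0.32) lists. Hbb-b2 and Hbb-bt, both erythrocyte markers, hold identical values. Among adipose and pancreas markers 3 of 14 reached 1 TPM, and Cfd, the adipocyte factor D, was lower, with 2.54 TPM in Control, 0.7696 in aHepGHRkd_rIGF1, 0.395 in aHepGHRkd and 0.3400 in aHepGHRkd_STAT5bCA, while 6 were listed at 0 in aHepGHRkd_rIGF1.

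Finally, 6 genes with the largest absolute log2 ratio among those within 1.5-fold of Control in aHepGHRkd were listed. Atp2a1, the muscle calcium pump, had 0.156 TPM in Control, 1.06 in aHepGHRkd_rIGF1, 0.128 in aHepGHRkd and 0.1403 in aHepGHRkd_STAT5bCA, and Col3a1 is given above. Cavin3, a caveolar coat protein, had 0.472 TPM in Control, 1.32 in aHepGHRkd_rIGF1, 0.576 in aHepGHRkd and 0.764 in aHepGHRkd_STAT5bCA. Lower in the rIGF1 group were Mmd2 (1.53 TPM in Control, 0.248 in aHepGHRkd_rIGF1, 1.87 in aHepGHRkd and 0.856 in aHepGHRkd_STAT5bCA), Tff3, a mucosal trefoil peptide (16.4 TPM in Control, 4.98 in aHepGHRkd_rIGF1, 16.8 in aHepGHRkd and 2.404 in aHepGHRkd_STAT5bCA), and Ubd, a ubiquitin-like modifier (1.56 TPM in Control, 0.5396 in aHepGHRkd_rIGF1, 1.37 in aHepGHRkd and 1.42 in aHepGHRkd_STAT5bCA). Tff3 was low in aHepGHRkd_STAT5bCA too, at 2.404 TPM, and high in Control and aHepGHRkd. In the authors' deposited table the p of aHepGHRkd_rIGF1 over aHepGHRkd is 0.595 for Atp2a1, 0.397 for Mmd2, 0.523 for Col3a1 and 0.963 for Cavin3, and 1 for Tff3 and Ubd.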

How the data were processed

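Liver RNA was polyA-selected and sequenced, per the labels. The authors used STAR, featureCounts and edgeR on the mouse build mm9, per the submitters' processing notes. The sources used here give no tool versions and do not say if counting was by strand.

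The authors deposited 1 TPM value per group, summing to between 999981 and 999989, so depth per library is unknown. A signal column of the deposited table holds the highest group value and a score column holds the authors' signed fold, and neither was used, nor were 2 columns that repeat the aHepGHRkd values. The authors computed the ratio columns, which are linear folds, in edgeR. The deposited p-value column is headed P-1, states no adjustment, and is read as adjusted because 69174 and 75054 of its values are exactly 1 for aHepGHRkd over Control and aHepGHRkd_rIGF1 over aHepGHRkd. Of 75798 features, 4 lines were empty and 75794 were read. Of the 20879 coding features, 20699 matched a mouse RefSeq symbol.

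The group TPM of aHepGHRkd_rIGF1 was divided by that of Control where the larger was at least 1 TPM and both were above 0, and coding genes at 2-fold or more were counted. The group values allow no test, and precision between animals cannot be given. The counting was tested on simulated data. Named genes were the 12 largest and 12 smallest ratios, the GH and IGF1 axis, up to 4 past 2-fold per list, genes of the study's title, and 6 genes within 1.5-fold in aHepGHRkd. Some of these genes are not reported here. Further list members are examples chosen after their values were seen. The genes and 31 lists were chosen with earlier results of these data known, and a muscle list after the values were seen. Promoters came from RefSeq on GRCm38.p6. Python 3.11.15, pandas 2.3.3, numpy 2.4.6 and matplotlib 3.10.9 were used.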

Additional observations from a re-analysis of the deposited data

Results flagged for a closer look

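Noncoding features lie outside the coding comparison, and they too differed between aHepGHRkd_rIGF1 and Control. Of 4278 noncoding features that passed the same 1 TPM filter, 240 (5.61%) were at least 2-fold higher and 201 (4.7%) at least 2-fold lower. The shares of coding genes were 1.23% and 1.32%. Noncoding and coding features were not matched for abundance, so these shares cannot say which kind differed more often. A feature that reached 1 TPM in a single group could pass only by being high there. These ratios have no test either. The smallest ratios lay next to each other on chromosome 12. SERPINA4-PS1, a serpin pseudogene (105316169 to 105325130 on mm9), had 191 TPM in Control, 1.42 in aHepGHRkd_rIGF1, 1.13 in aHepGHRkd and 109 in aHepGHRkd_STAT5bCA. The intergenic features NC_INTER_C12_10880 (75.2 TPM in Control, 0.525 in aHepGHRkd_rIGF1) and NC_INTER_C12_22922 (14.6 and 0.102) lie within or over its span, so their reads may be shared. The largest ratio was that of NC_INTER_C5_41490, with 0.0672 TPM in Control and 1.47 in aHepGHRkd_rIGF1, through which alone it passed the filter.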

How the results depend on the processing

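No paired analysis was possible because the table holds 1 value per group, so replicates could be neither blocked nor left out. The lower count kept within 1.5 times of 145 under both pseudocounts, the 5 TPM filter, centring, rescaling without the 20 most abundant genes and the product of deposited ratios (110 to 170). The higher count of 136 was 122 with a pseudocount of 0.1 TPM, 124 after rescaling, 95 after centring and 99 in the product of deposited ratios, where higher genes made up 37.5% of those past 2-fold. It was 71 with a pseudocount of 1 TPM and 70 with the 5 TPM filter. Without a filter the counts were 916 higher and 545 lower, at 1.5-fold 608 and 276, and at 3-fold 39 and 77. Of 88 named genes, none of those past 2-fold reversed its direction under any of these settings. Of the 88, 5 (Acot2, Lect2, Gdf15 and Hspa1a among them) lost 2-fold after centring, 4 of these (all but Gdf15) in the product of deposited ratios, and 2 (Hspa1a among them) with a pseudocount of 0.1 TPM and after rescaling. With a pseudocount of 1 TPM 15 lost it. Insr and Irs2, both within 2-fold, changed sign after centring and in the product of deposited ratios. Of 576 list counts, 97 moved by over 1.5 times or to or from 0. Of these 97, 30 were at 1.5-fold and 20 at 3-fold, where the limit itself was changed. The cause of the other moves was not tested.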
